A study of Mus musculus with 19 samples.

Results

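Cholesterol is built from acetyl-CoA by a chain of enzymes whose genes are controlled together, and the set described here holds 26 genes of that system. They are 20 enzymes of synthesis, 5 genes of the SREBP switch that controls them (Srebf1, Srebf2, Scap, Insig1 and Insig2) and Stard4, a carrier of sterols between membranes. The members were fixed by name and found by Ensembl identifier: all 26 were present among the 35274 genes listed, and all 26 were among the 16387 genes with enough counts to be tested.

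RNA was sequenced from mouse hepatocytes of 3 groups, all with the genotype OPN-CreERT2;Rosa26R-mT/mG, in which an osteopontin promoter drives a tamoxifen-inducible Cre and Cre turns the reporter of a cell and its progeny from red (tdTomato) to green. The GREEN group came from chronic liver injury and consists of hepatocytes called DR-derived, an abbreviation that the labels do not spell out. The RED group consists of native, tdTomato-bearing hepatocytes from chronic liver injury, and the CTL group of native hepatocytes from healthy livers. Each group had 5 samples that the labels call biological replicates. The injuring agent, the sex of the animals and the way the cells were isolated were not stated in the labels or file headers. The duration of injury and the age of the animals were not spelled out there either. The codes of all RED and GREEN libraries do share a mark, a number followed by the letter w, that no CTL code carries. Whether this mark gives a duration, an age or something else was not stated, and it is separate from the code numbers used below. No label says which samples shared an animal. The libraries came from 2 experiments with different kits, poly(A) selection in experiment 1 and ribosomal RNA removal in experiment 2. Of the 5 libraries tested per group, 2 came from experiment 1 and 3 from experiment 2, and the model held a term for experiment. Fits of experiment 1 alone also used the experiment 1 libraries of CTL 5, RED 2, RED 3 and RED 4. Results of the 2 experiments alone thus share these samples and are not independent.

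In the textbook pathway, acetyl-CoA becomes mevalonate, then isoprenoid units, squalene, lanosterol and, after many further steps, cholesterol. SREBP2, the product of Srebf2, is held in the endoplasmic reticulum with its escort SCAP by the INSIG proteins while sterols are plentiful. When sterols fall, SCAP carries it to the Golgi, where proteases free the part that enters the nucleus and turns on nearly every enzyme gene of the pathway. SREBP1c, the main product of Srebf1 in liver, serves fatty acid synthesis instead and rises with feeding. The liver makes cholesterol for bile acids, lipoproteins and membranes.

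Across the libraries in the tests, totals were 26163553 to 44177627 estimated counts, and member counts ran between 101 (Mvd in RED 2) and 51619. Levels are given as CPM, the count of a gene relative to the library total after TMM scaling, and a member is said to rise or fall only where it passed the test. The hepatocyte label was checked with 10 markers of hepatocytes (Alb, Apoa1, Hnf4a, Tat, Cps1, Asgr1, Asgr2, F9, Fgb and Cyp2e1). None was at 0 in any library, and their summed level was 32170 to 71570 CPM in GREEN, 66590 to 108700 CPM in RED and 94540 to 163900 CPM in CTL samples. Lists of 10 markers each of bile duct, endothelial, stellate and macrophage cells were also summed. Biliary markers summed to 532 to 8296 CPM in GREEN, 88.6 to 436 CPM in RED and 28.7 to 315 CPM in CTL samples, with GREEN 3 (3037 CPM), GREEN 5 (4249 CPM) and GREEN 4 (8296 CPM) standing apart. Endothelial markers summed to 291 to 678 CPM in GREEN, 360.1 to 1803 CPM in RED and 40.1 to 136 CPM in CTL samples. Stellate and matrix markers summed to 997 to 3245 CPM in GREEN, 347 to 1999 CPM in RED and 40.8 to 91.1 CPM in CTL samples, and macrophage markers to 138 to 524 CPM in GREEN, 115 to 1537 CPM in RED and 36.3 to 101 CPM in CTL samples. Of the 10 biliary markers 3 to 5 were at 0 in each CTL sample and up to 2 in RED samples, and no marker of the other lists was at 0 in any sample. The hepatocyte sum was lower, and the biliary sum higher, in every GREEN sample than in every CTL sample. In bulk RNA of this kind, fewer hepatocytes and less RNA of a gene per hepatocyte cannot be told apart. Description codes give GREEN 3 and GREEN 4 the same number, 4, with no word on what it marks, so these may not be independent samples.

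To compare levels between genes, counts were also divided by merged exon length (CPM per kilobase). On that scale Insig1 had the highest median of the members in each group, with 85.0 in GREEN, 131.5 in RED and 217 in CTL samples. Hmgcs1 had medians of 53.5 in GREEN, 92.9 in RED and 128 in CTL samples, and Sc5d had 34.5, 85.7 and 137 in the same order of groups. The order below Insig1 differed between groups: Hmgcs1 was second in GREEN and RED, and Sc5d in CTL samples. Ggps1 and Lbr had the lowest medians in each group, with 3.06 and 4.62 in GREEN, 2.03 and 4.93 in RED, and 1.58 and 3.04 in CTL samples. The merged length of Lss, 10787 bases, counts every annotated isoform, so its level per kilobase is understated.

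In GREEN and RED, though not in CTL, the enzymes differed widely between samples of the same group. The ratio of the highest to the lowest of 5 samples, taken for each of the 20 enzymes, had a median of 4.01 in GREEN, 5.42 in RED and 1.72 in CTL samples. Over the 10286 tested genes with a mean of 5 CPM or more the same median was 1.78 in GREEN, 1.79 in RED and 1.64 in CTL samples. The ratio reached at least 4 for 10 of the 20 enzymes in GREEN, 12 in RED and 0 in CTL samples, against 11%, 11.9% and 9.79% of those genes. Without GREEN 1 and RED 2 the median enzyme ratio was 3.08 over 4 GREEN and 2.25 over 4 RED samples, next to 1.62 and 1.66 over those genes. This is a description of the samples, with no test of the spread.

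Mvd, which removes a carboxyl group from the mevalonate chain, had 2.71, 27.8, 32, 20.1 and 12.5 CPM in GREEN 1 to 5, 27.8, 2.62, 32.1, 53.4 and 27.7 CPM in RED 1 to 5 and 20.01, 54.5, 49.8, 37 and 21 CPM in CTL 1 to 5. Sqle, the squalene epoxidase and a rate-limiting step, had 16.2, 99.7, 170.2, 99.6 and 44.1 CPM in GREEN 1 to 5, 55.7, 15, 117, 235 and 119 CPM in RED 1 to 5 and 128, 176, 143, 176 and 197 CPM in CTL 1 to 5. Both genes were far lower in GREEN 1 and RED 2 than in any other sample. Hmgcs1, the synthase that condenses acetoacetyl-CoA with acetyl-CoA, had 84.1, 457, 704, 246 and 166 CPM in GREEN 1 to 5, 353, 103, 529, 1233 and 427 CPM in RED 1 to 5 and 488, 1278, 588, 456 and 617 CPM in CTL 1 to 5. Idi1, the isomerase of the isoprenoid units, had 29.7, 236, 331, 136 and 66 CPM in GREEN 1 to 5, 148, 37.6, 271, 578 and 343 CPM in RED 1 to 5 and 194, 345, 274, 392 and 372 CPM in CTL 1 to 5. For these genes too GREEN 1 and RED 2 were lowest of all 15, while the level of RED 4 was above 4 or all 5 of the CTL samples.

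The order of samples was shared along the pathway. For the next counts the experiment effect was removed from log2 CPM, so they can differ from counts on the CPM values printed. On this corrected scale RED 2 was the lowest RED sample for 19 of 20 enzymes and RED 4 the highest for 16. In GREEN, GREEN 1 was lowest for 15 and GREEN 3 highest for 12. Against its mean over 15 samples on the corrected scale, the median enzyme stood at -1.50 (log2 CPM) in GREEN 1 and 0.34 in GREEN 3. It stood at -1.45 in RED 2 and 0.93 in RED 4. The CTL samples lay between 0.26 and 0.91 on that scale. RED 2 and RED 4 were close in the hepatocyte marker sum (66590 and 79080 CPM), most of which was Alb (46150 and 58490 CPM). Some single hepatocyte markers differed more, in both directions, as Tat (1855 and 885 CPM) and Apoa1 (2271 and 4803 CPM) did. The 2 samples were apart in the macrophage sum (115 and 831 CPM) and the endothelial sum (401 and 1311 CPM). The part of these differences in the enzyme levels was not tested.

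**Figure D1:**
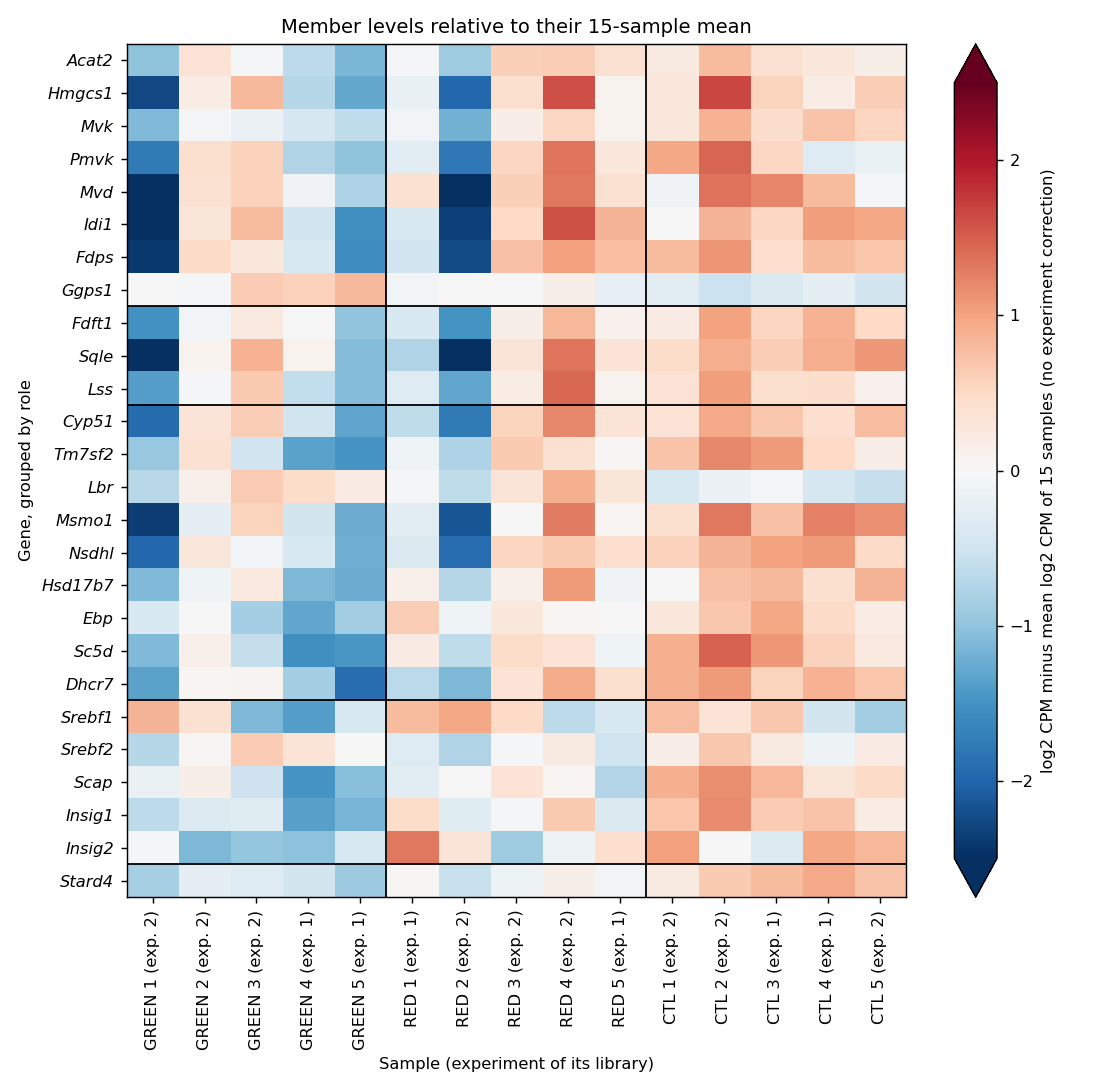
Each cell is the log2 CPM of a member (rows, grouped by role, with lines between groups) in a sample (columns: GREEN 1 to 5, RED 1 to 5, CTL 1 to 5) minus its mean over the 15 samples; blue is lower and red higher. The values drawn are not corrected for experiment. Most enzyme rows are darkest blue in GREEN 1 and RED 2, and Srebf1 is highest of its group in both. With the experiment effect removed, the median enzyme stood at -1.50 in GREEN 1 and -1.45 in RED 2.

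The second library of RED 2, RED 3 and RED 4, made with the other kit, gave the same picture. Among the 5 experiment 1 libraries of RED samples, RED 2 was lowest for 18 of 20 enzymes and RED 4 highest for 16. With all 19 libraries scaled together, Sqle had 11.5, 123.6 and 258 CPM in the poly(A) libraries of RED 2, RED 3 and RED 4, and 14.7, 115 and 233 CPM in their ribosomal-depletion libraries. Mvd had 2.97, 45.0 and 70.9 CPM in the poly(A) libraries of these samples and 2.58, 31.4 and 52.8 CPM in the others. The kit itself moved members far less: over the 26 members and 4 samples with a library in each experiment, 99 of 104 log2 ratios of experiment 2 over experiment 1 lay within 0.5 of 0. Of the members, 12 were lower in experiment 2 in all 4 samples and 5 were higher in all 4, with mean log2 ratios from -0.52 (Ebp, Nsdhl) to 0.32 (Scap).

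**Figure D2:**
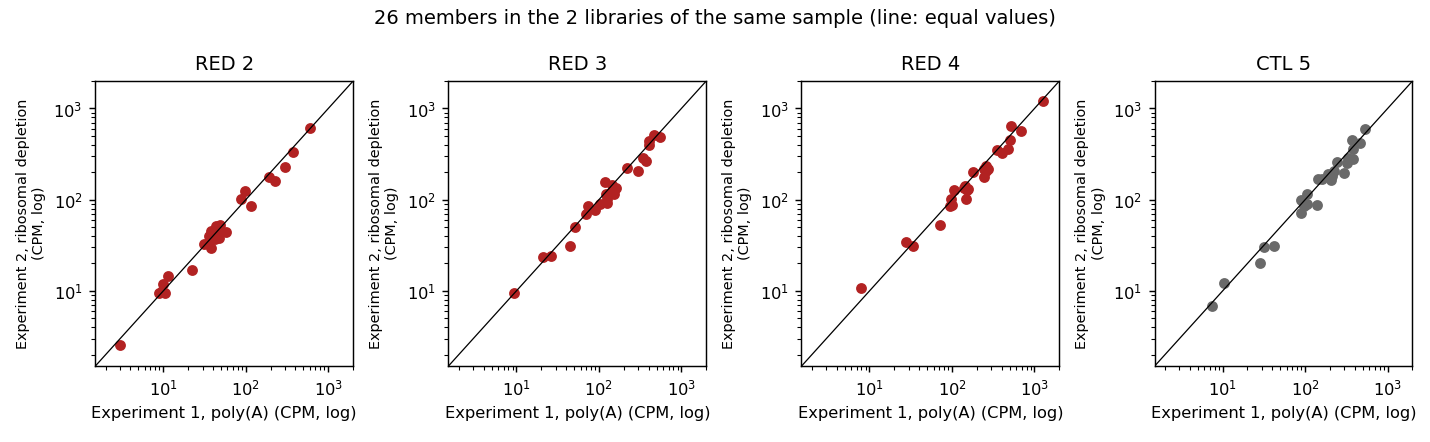
Level of the 26 members in the experiment 2 library (vertical, CPM, log axis) against the experiment 1 library (horizontal, CPM, log axis) of RED 2, RED 3, RED 4 and CTL 5, with a line at equal values. Points follow the line over the whole range, and 99 of 104 log2 ratios lie within 0.5 of it.

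In the experiment 2 libraries most enzymes ascended with the code number of the descriptions in both colours. There, GREEN 1 and RED 2 share the number 2, GREEN 2 and RED 3 the number 3, and GREEN 3 and RED 4 the number 4. Levels ascended in the order 2, 3, 4 for 12 of 20 enzymes in GREEN and 17 in RED libraries. Of the 10286 genes 35.7% did so in GREEN and 32.5% in RED libraries. In both colours at once 12 enzymes ascended, against 22.4% of the 10286 genes. Within such pairs the median log2 ratio of GREEN over RED over the 20 enzymes was -0.14 for number 2, -0.26 for number 3 and -0.81 for number 4, next to -0.23, -0.27 and -1.06 for the 10 hepatocyte markers. In experiment 1 the same ratio was -1.39 for number 5 and -1.87 for number 4, next to -0.92 and -2.21 for the hepatocyte markers. The enzyme median was thus below 0 in all 5 pairs, below the marker median in the pair numbered 5 and above it in the other 4. The 2 pairs numbered 4 used 2 libraries of the same sample, RED 4, so the 5 pairs are not independent. These are descriptions of single pairs of libraries.

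Srebf1, by contrast, was high in the samples lowest in most enzymes. It had 577, 414, 146, 123 and 243 CPM in GREEN 1 to 5, 554, 623, 449, 204 and 240.3 CPM in RED 1 to 5 and 548, 403, 508, 233 and 175 CPM in CTL 1 to 5. GREEN 1 and RED 2 were the highest of their groups. The order was not the reverse of that of the enzymes throughout: GREEN 4 was lowest in Srebf1 with an enzyme median of -0.47, and CTL 3 had 508 CPM with an enzyme median of 0.75. Srebf2 had 53.9, 89.5, 136, 110.2 and 88.8 CPM in GREEN 1 to 5, 70.7, 52.2, 86.2, 103 and 62.5 CPM in RED 1 to 5 and 99.8, 140.5, 103, 80.5 and 102 CPM in CTL 1 to 5. For Srebf2, itself a known SREBP2 target, GREEN 1 and RED 2 were the lowest of their groups, GREEN 3 and RED 4 the highest, and the 3 groups overlapped.

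**Figure D3:**
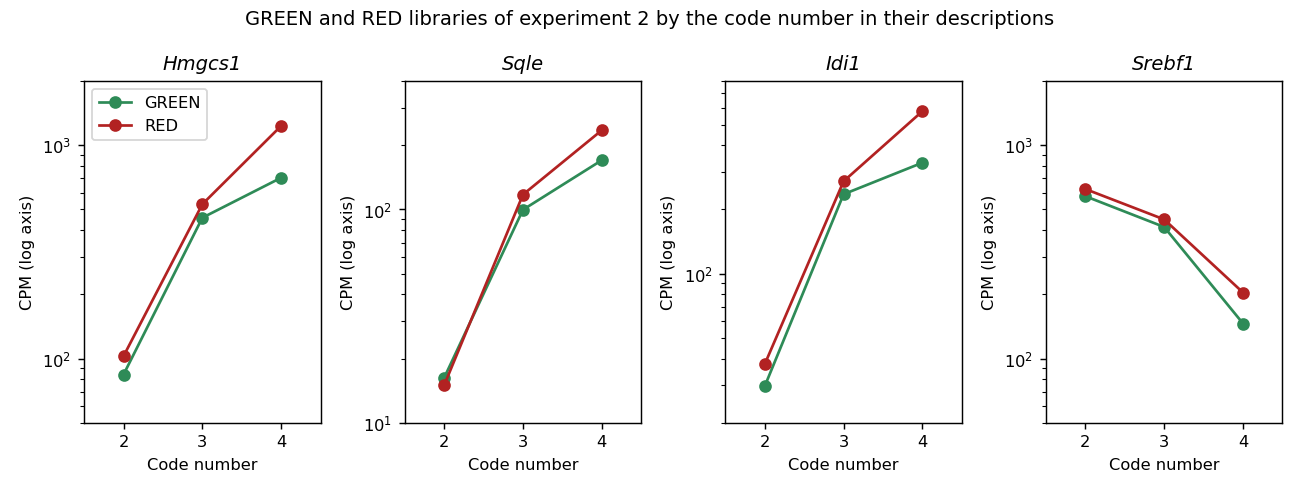
Level (CPM, log axis) of Hmgcs1, Sqle, Idi1 and Srebf1 in the 3 GREEN and the 3 RED libraries of experiment 2, by the code number in their descriptions (2, 3, 4). The enzyme levels ascend with the number in both colours (Sqle 16.2, 99.7 and 170 CPM in GREEN) while Srebf1 descends (577, 414 and 146 CPM in GREEN).

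Not every member varied so. Ggps1, which makes the geranylgeranyl unit used for protein prenylation and lies off the sterol branch, had a highest to lowest ratio of 1.81 in GREEN, 1.28 in RED and 1.24 in CTL samples. Stard4 had 1.60, 1.62 and 1.65, and Ebp, the sterol isomerase, had 2.44, 1.65 and 1.71 in the same order of groups. Promoters of a member with a wide spread in RED samples (Hmgcs1, ratio 12.0), of the widest (Mvd, 20.4) and of the narrowest (Ggps1) are printed to show what these genes carry near their starts. Sqle (15.7) and Idi1 (15.3) had wider ratios than Hmgcs1 and are not printed. Sqle had no promoter window, and that of Idi1 held no TCACNCCAC. A link between motifs and spread was not tested. Each run is the 250 bases before the RefSeq transcript start in build GRCm38.p6, 5′ to 3′ on the strand of the gene: chr13:119690101-119690350 on the + strand, chr8:122443423-122443672 on the - strand and chr13:14063489-14063738 on the - strand. The Ggps1 run overlaps exons of a noncoding Arid4b transcript on the other strand, and the other runs overlap no annotated exon. Capitals mark TCACNCCAC, letters of a sterol regulatory element to which SREBPs bind, and CCAAT, the letters bound by NF-Y, a common partner of SREBPs; both were searched on both strands, so CCAAT also appears as ATTGG.
Hmgcs1: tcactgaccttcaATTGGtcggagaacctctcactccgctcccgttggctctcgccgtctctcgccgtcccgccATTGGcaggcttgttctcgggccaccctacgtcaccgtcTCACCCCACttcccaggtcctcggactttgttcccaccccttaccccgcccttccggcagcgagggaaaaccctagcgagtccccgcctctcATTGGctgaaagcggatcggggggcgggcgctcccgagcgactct
Mvd: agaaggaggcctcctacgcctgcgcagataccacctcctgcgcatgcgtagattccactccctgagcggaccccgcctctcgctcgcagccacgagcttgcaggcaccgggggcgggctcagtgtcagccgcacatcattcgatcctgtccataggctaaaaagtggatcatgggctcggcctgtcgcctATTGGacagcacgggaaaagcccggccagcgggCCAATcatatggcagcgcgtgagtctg
Ggps1: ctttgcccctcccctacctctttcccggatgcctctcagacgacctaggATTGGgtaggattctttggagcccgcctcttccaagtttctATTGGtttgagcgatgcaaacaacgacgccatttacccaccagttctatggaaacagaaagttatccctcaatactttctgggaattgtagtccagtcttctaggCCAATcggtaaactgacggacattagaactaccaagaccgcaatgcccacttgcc
Windows of 300 bases (250 before the start and 50 after) were found for 22 of the 26 members, and not for Fdps, Fdft1, Sqle and Stard4. TCACNCCAC was present in 1 of the 22, Hmgcs1, against 1.44% of 27025 genes with a window. CCAAT was present in 20 of 22 (90.9%) against 41.1% of those genes, and in 42.6% of the 11927 tested genes that were matched by symbol. GGGCGG, the GC box read by Sp1, was also in 20 of 22 (90.9%) against 38.2% of all genes and 62.6% of the tested ones. Matches of the 3 motifs did not overlap in the printed runs. A gene with several starts was counted once if any of its windows held the letters, and a match is a run of letters, not a shown binding site.

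GREEN versus CTL compares DR-derived hepatocytes of injured liver with hepatocytes of healthy liver. By the quasi-likelihood test of edgeR with Benjamini-Hochberg adjustment over 16387 genes, 13 of the 26 members fell and 1 rose, but with libraries scaled to the 10 hepatocyte markers 12 of the 13 had fitted changes above 0 and none of the 13 passed. Among all genes 48.1% passed, 18.6% lower and 29.5% higher, so lower calls were more frequent among the members (50%) than in the background. The median log2 fold change was -1.07 over the members, 0.11 over all genes tested and -1.40 over the 10 hepatocyte markers. By library totals 6 members fell and 2 rose, against 2.85% lower and 61.5% higher of all genes, with a median of -0.32 over members and 0.83 over all genes. The calls lost by library totals were those of Acat2, Dhcr7, Hsd17b7, Insig2, Msmo1, Mvk and Nsdhl, with log2 fold changes of -0.76 to -0.08. Scaled to hepatocyte markers 4 members rose and none fell, against 83.8% higher and 0.476% lower of all genes. The difference between the member and all-gene medians was -1.18 with TMM, -1.15 with library totals and -1.07 with hepatocyte markers. Each scaling moves all genes of a library alike, so these differences stay close by construction and are no separate support. Levels of the 2 groups did not overlap for 8 members that were lower and 1 that was higher in GREEN samples, against 9.59% and 21% of all genes (30.6% in either direction).

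**Figure D4:**
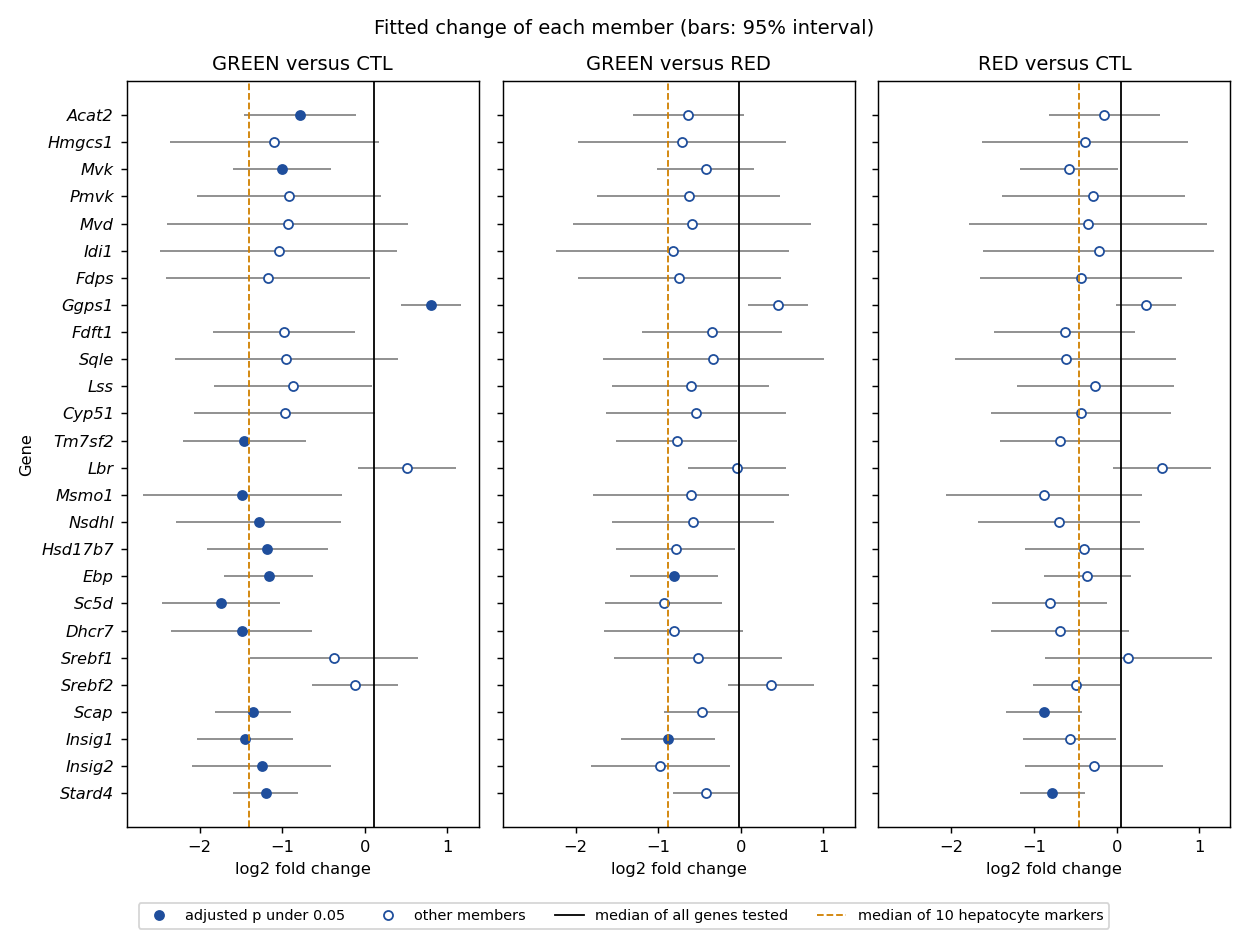
Fitted log2 fold change (horizontal) of each member (rows) in GREEN versus CTL, GREEN versus RED and RED versus CTL, with 95% intervals as bars; filled points passed an adjusted p of 0.05 in edgeR's test. In GREEN versus CTL the members centre on -1.07, between the median of all genes (solid line, 0.11) and that of 10 hepatocyte markers (dashed line, -1.40); scaled to those markers, 12 of the 13 falls turn to values above 0.

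The late steps, after lanosterol, held 7 of the 14 calls: 7 of their 9 genes fell. Sc5d (ENSMUSG00000032018.14, chromosome 9, 42251595 to 42264256, - strand, build GRCm38), the desaturase that makes 7-dehydrocholesterol, had 168, 392, 239, 124 and 131 CPM in GREEN 1 to 5, 417, 231, 494, 453 and 334 CPM in RED 1 to 5 and 668, 996, 763, 536 and 425 CPM in CTL 1 to 5. Every GREEN sample was below every CTL sample, and the fitted level was 3.35-fold lower in GREEN (log2 -1.74, SE 0.33, edgeR adjusted p = 0.00081). Within experiment 1 alone the change was -2.17 and within experiment 2 alone -1.39, where the adjusted p was 0.056, and it was -0.27 when scaled to hepatocyte markers (adjusted p = 0.43).

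Dhcr7, the last reductase of the pathway, had 46.1, 119.6, 122, 64.4 and 30.9 CPM in GREEN 1 to 5, 72.9, 53.5, 146, 222 and 152 CPM in RED 1 to 5 and 216, 243, 171, 212 and 187 CPM in CTL 1 to 5. No GREEN sample reached the CTL range, and the log2 fold change was -1.49 (SE 0.39, edgeR adjusted p = 0.0064). Ebp had 134, 173, 96.5, 71 and 95.9 CPM in GREEN 1 to 5, 269, 163, 209, 180.4 and 175 CPM in RED 1 to 5 and 212, 279, 342, 242 and 199.6 CPM in CTL 1 to 5. Again GREEN and CTL samples did not overlap, with a log2 fold change of -1.16 (SE 0.24, edgeR adjusted p = 0.0017). Nsdhl, which acts in the removal of methyl groups at carbon C-4, had 16.6, 77.9, 61.7, 49.6 and 27.6 CPM in GREEN 1 to 5, 49.9, 17.3, 93.7, 102 and 86.6 CPM in RED 1 to 5 and 96.1, 116, 130.2, 135 and 89.9 CPM in CTL 1 to 5. All GREEN samples lay under the CTL samples here too (log2 -1.28, SE 0.45, edgeR adjusted p = 0.031).

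The other late genes with a call overlapped between the groups. Tm7sf2, a sterol C-14 reductase, had 34.7, 86.5, 47.7, 26.4 and 23.9 CPM in GREEN 1 to 5, 61.7, 39.2, 105, 86 and 68 CPM in RED 1 to 5 and 109, 154, 139, 94.5 and 74.1 CPM in CTL 1 to 5. Only GREEN 2 entered the CTL range, and the log2 fold change was -1.46 (SE 0.34, edgeR adjusted p = 0.0032). Msmo1, the C-4 methyl oxidase, had 26.3, 114, 197, 97.2 and 56.4 CPM in GREEN 1 to 5, 110.4, 30.3, 136, 328 and 138 CPM in RED 1 to 5 and 176, 333, 222, 320 and 295 CPM in CTL 1 to 5. Here GREEN 3 exceeded the lowest CTL sample, and the change was -1.48 (SE 0.55, edgeR adjusted p = 0.038). Hsd17b7, a 3-ketosteroid reductase of the same C-4 complex, had 30.8, 61.1, 78.3, 30.4 and 27.7 CPM in GREEN 1 to 5, 72.3, 40.3, 71.9, 137 and 62.3 CPM in RED 1 to 5 and 66.7, 109, 115, 86.5 and 118 CPM in CTL 1 to 5. GREEN 3 again lay above the lowest CTL sample (log2 -1.18, SE 0.33, edgeR adjusted p = 0.0098). The call of Nsdhl was lost when GREEN 1, GREEN 4, GREEN 5 or CTL 4 was left out, with log2 fold changes of -1.55 to -1.08 over the 15 samples left out in turn. That of Msmo1 was lost without GREEN 1, GREEN 2, GREEN 4, GREEN 5, CTL 4 or CTL 5, with -1.82 to -1.25. Tm7sf2 shares 532 exonic bases with Vps51 on the same strand, so its estimated counts are less certain.

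Of the 9 late-step genes, Cyp51 and Lbr did not pass. Cyp51, the lanosterol demethylase, averaged 129.7 ± 85.4 CPM in GREEN and 244 ± 41.5 CPM in CTL samples (SD, n = 5 each), with a log2 fold change of -0.97 and a 95% interval of -2.07 to 0.12. Lbr, a nuclear envelope protein with the same sterol reductase activity as Tm7sf2, averaged 22 ± 6.67 CPM in GREEN and 15.5 ± 2.42 CPM in CTL samples (SD, n = 5 each). Its change was 0.51, with an interval of -0.09 to 1.10. By library totals Lbr passed with 1.25.

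Earlier steps gave fewer calls. Of the 8 genes of the mevalonate and isoprenoid steps, 2 fell and 1 rose, and of the 3 squalene and lanosterol genes none passed. Mvk, mevalonate kinase, had 10.2, 21.4, 20.1, 16.6 and 14.3 CPM in GREEN 1 to 5, 21, 9.76, 24.7, 31.7 and 23.5 CPM in RED 1 to 5 and 26.7, 40.6, 29.8, 36.3 and 32.1 CPM in CTL 1 to 5. GREEN lay below CTL in every sample (log2 -1.0, SE 0.27, edgeR adjusted p = 0.0076). Acat2, the cytosolic acetoacetyl-CoA thiolase, had 41.7, 108, 82.5, 52.9 and 38 CPM in GREEN 1 to 5, 81.6, 45.4, 127, 128 and 109 CPM in RED 1 to 5 and 98.2, 145, 109, 99.9 and 92.7 CPM in CTL 1 to 5. GREEN 2 lay inside the CTL range, and the change of -0.79 (SE 0.31, edgeR adjusted p = 0.047) was -0.08 by library totals, where it did not pass. It also lost its call without any 1 of GREEN 1, GREEN 3, GREEN 4, GREEN 5, RED 3, CTL 2, CTL 3 or CTL 4, with -1.01 to -0.63.

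Ggps1 was the exception in direction. It had 9.78, 9.39, 15.1, 14.4 and 17 CPM in GREEN 1 to 5, 9.25, 9.58, 9.58, 10.8 and 8.44 CPM in RED 1 to 5 and 7.95, 6.69, 7.48, 8.27 and 7 CPM in CTL 1 to 5. Every GREEN sample was above every CTL sample, and GREEN 3, GREEN 4 and GREEN 5, the samples with the highest biliary sums, were also the highest here. The fitted level was 1.75-fold higher in GREEN than in CTL samples (log2 0.81, SE 0.17, edgeR adjusted p = 0.0015). Without those 3 samples the change was 0.28 and did not pass (adjusted p = 0.35). The gene shares 257 exonic bases with Arid4b on the other strand, and the sources used here do not say whether strand was used in counting.

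The remaining enzymes had fitted changes below 0, most with wider errors. Hmgcs1 (-1.09, SE 0.57), Idi1 (-1.04, SE 0.65), Fdps (-1.17, SE 0.56) and Fdft1 (-0.98, SE 0.39) did not pass. Nor did Sqle (-0.95, SE 0.61), Mvd (-0.94, SE 0.66), Pmvk (-0.92, SE 0.51) and Lss (-0.86, SE 0.43). Fdps makes farnesyl diphosphate, Fdft1 joins 2 of these into squalene, Pmvk adds the second phosphate to mevalonate and Lss closes squalene epoxide into lanosterol. Fdps shares 1124 exonic bases with Gm43738 on the same strand, and Hmgcs1, Idi1, Fdft1, Lss, Cyp51, Lbr and Srebf1 share 109 to 774 with genes of the other strand, so their counts are less certain. The median standard error of the 20 enzymes was 0.41, against 0.18 over all genes with a mean of 5 CPM or more. Without GREEN 1 and RED 2, 17 members passed in this comparison, Fdft1 (-0.79), Fdps (-0.94) and Lbr (0.67) among them. Of all genes 20.2% were lower and 31.4% higher in that setting.

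The switch genes split. Scap had 111, 138, 87.1, 45.2 and 60.02 CPM in GREEN 1 to 5, 104, 127, 158, 130.3 and 75.9 CPM in RED 1 to 5 and 232, 282, 223, 155 and 174 CPM in CTL 1 to 5. GREEN samples lay wholly below CTL samples, and the level was 2.56-fold lower (log2 -1.35, SE 0.21, edgeR adjusted p = 0.00021). Insig1, both a brake on SCAP and a known SREBP target, had 263, 329, 336, 163 and 186 CPM in GREEN 1 to 5, 569, 338, 407, 656 and 324 CPM in RED 1 to 5 and 671, 941, 643, 677 and 470 CPM in CTL 1 to 5. It was 2.73-fold lower in GREEN than in CTL samples, without overlap (log2 -1.45, SE 0.26, edgeR adjusted p = 0.00061).

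Insig2, the second retention protein, had 142, 66.2, 74.5, 71.5 and 110 CPM in GREEN 1 to 5, 362, 181, 78, 133 and 194 CPM in RED 1 to 5 and 295, 146, 114, 285 and 258 CPM in CTL 1 to 5. The ranges overlapped through GREEN 1 and CTL 3, and the change was -1.25 (SE 0.38, edgeR adjusted p = 0.015). Its call was lost by library totals (-0.54), without GREEN 3, GREEN 4 and GREEN 5 (-1.02) and within either experiment alone (-1.39 in experiment 1 and -1.31 in experiment 2). Neither Srebf1 (-0.37, 95% interval -1.39 to 0.65) nor Srebf2 (-0.12, 95% interval -0.64 to 0.40) passed. Stard4 had 72.6, 109, 103, 92.8 and 68.1 CPM in GREEN 1 to 5, 130.1, 87.7, 117, 142 and 123 CPM in RED 1 to 5 and 149.5, 202, 223, 247 and 209.8 CPM in CTL 1 to 5. It was 2.30-fold lower in GREEN than in CTL samples, again without overlap (log2 -1.20, SE 0.18, edgeR adjusted p = 0.00017). Scap, Insig1 and Stard4 passed within experiment 1 alone and within experiment 2 alone, and also without GREEN 3, GREEN 4 and GREEN 5, and did not pass when scaled to hepatocyte markers (0.11, 0.07 and 0.37). In experiment 1 alone 11 members passed, the calls of Insig2, Msmo1 and Nsdhl being lost. In experiment 2 alone 4 passed, the fourth being Ebp, and without GREEN 3, GREEN 4 and GREEN 5 only Scap, Insig1 and Stard4 passed. Of all genes 18.3% were lower and 32% higher in experiment 1 alone, and 4.85% and 15.8% in experiment 2 alone. Without GREEN 3, GREEN 4 and GREEN 5 these shares were 2.73% and 9.87%.

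**Figure D5:**
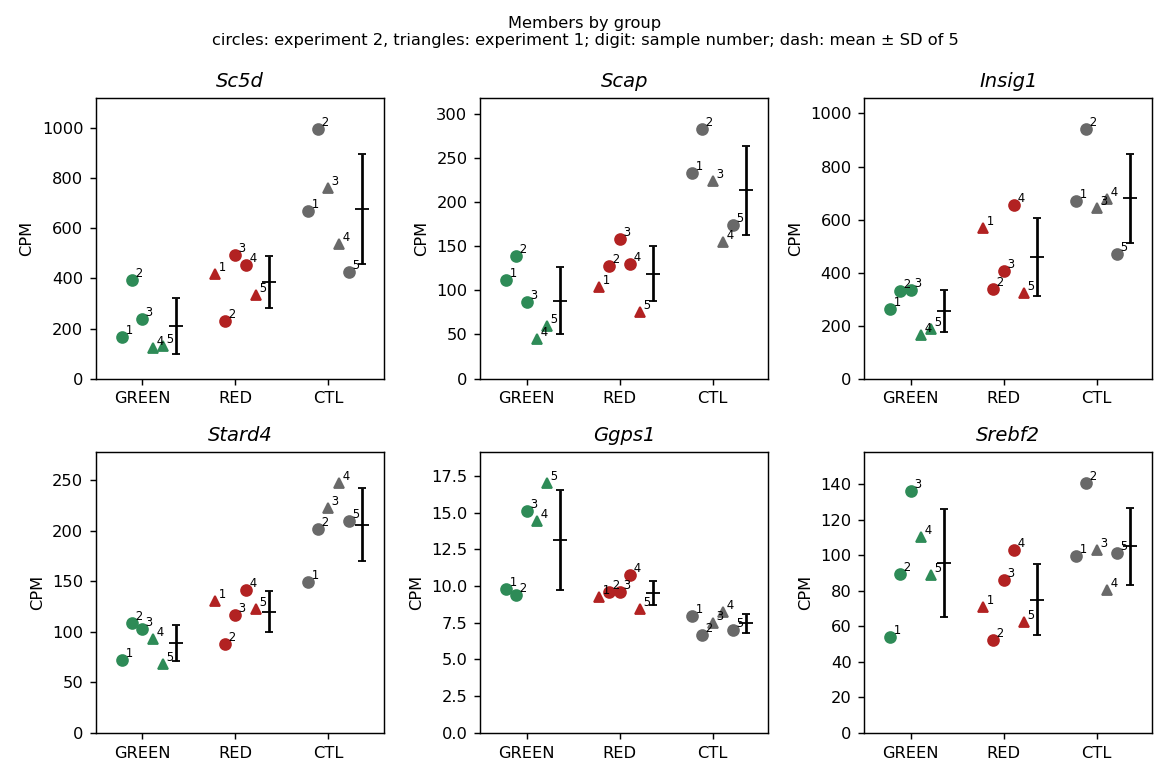
Level (CPM) of Sc5d, Scap, Insig1, Stard4, Ggps1 and Srebf2 in each sample of GREEN, RED and CTL (digits: sample numbers; circles: experiment 2; triangles: experiment 1; dash and bar: mean ± SD of 5). GREEN lies wholly below CTL for Sc5d, Scap, Insig1 and Stard4 and wholly above it for Ggps1, while Srebf2 overlaps; scaled to hepatocyte markers Scap, Insig1 and Stard4 had fitted changes above 0.

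RED versus CTL compares native hepatocytes of injured and healthy liver. Only Stard4 and Scap fell and no member rose (2 of 26), against 16.2% of all genes, 1.99% lower and 14.2% higher. Stard4 was lower in every RED than in every CTL sample (119.8 ± 20.2 CPM in RED and 206 ± 36 CPM in CTL samples, SD, n = 5 each). Its log2 fold change was -0.78 (SE 0.18, edgeR adjusted p = 0.007), -0.72 in experiment 1 alone and -0.70 in experiment 2 alone, where it did not pass. These 2 fits share RED 2, RED 3, RED 4 and CTL 5. For Stard4 a further setting also mattered. It did not pass by library totals either (-0.48, adjusted p = 0.076). Scap averaged 119 ± 30.7 CPM in RED and 213 ± 50.4 CPM in CTL samples (SD, n = 5 each), and RED 3 reached just above the lowest CTL sample. Its change was -0.88 (SE 0.21, edgeR adjusted p = 0.0083), -0.71 in experiment 1 alone and -0.73 in experiment 2 alone, where it too missed the threshold. Scaled to hepatocyte markers the changes were -0.26 and -0.37, and neither passed. Scap (ENSMUSG00000032485.14, chromosome 9, 110333288 to 110384950, + strand) overlaps a gene of the other strand, 5830462I19Rik, over 985 exonic bases.

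None of the 20 enzymes passed in RED versus CTL, with fitted changes between -0.88 (Msmo1) and 0.55 (Lbr). The intervals were wide: Sqle had -0.62 with a 95% interval of -1.96 to 0.72, and Hmgcs1 had -0.38 with -1.63 to 0.87. Ggps1 was higher in every RED than in every CTL sample (9.53 ± 0.839 CPM in RED and 7.48 ± 0.652 CPM in CTL samples, SD, n = 5 each) but did not pass (log2 0.36, SE 0.17, edgeR adjusted p = 0.18). Levels without overlap, 1 member higher and 1 lower in RED, compare with 10.6% and 1.42% of all genes (12% in either direction). The median change was -0.43 over members, 0.05 over all genes and -0.45 over the hepatocyte markers, of which none passed.

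GREEN versus RED compares both populations of the injured liver and is the test of whether the preceding comparisons, which share the CTL samples, differ. Only Insig1 and Ebp fell and no member rose (2 of 26), against 12.9% of all genes, 3.22% lower and 9.68% higher. No member was without overlap between the groups, against 8.91% of all genes, 6.66% higher and 2.25% lower in GREEN. Insig1 averaged 255 ± 79.4 CPM in GREEN and 459 ± 147 CPM in RED samples (SD, n = 5 each), a log2 fold change of -0.88 (SE 0.26, edgeR adjusted p = 0.04). Ebp averaged 114 ± 40.02 CPM in GREEN and 199 ± 42.4 CPM in RED samples (SD, n = 5 each), a change of -0.81 (SE 0.24, edgeR adjusted p = 0.044). Scaled to hepatocyte markers both turned to values above 0 (0.15 and 0.13), and neither passed by library totals, in experiment 2 alone, or without any 1 of GREEN 3, GREEN 4, GREEN 5, RED 1 and RED 4. Over the 15 samples left out in turn Insig1 had -1.02 to -0.78 and Ebp -1.0 to -0.66, and Ebp lost its call also without RED 3, RED 5, CTL 4 or CTL 5. Within experiment 1 alone 9 members passed, 8 lower and 1 (Ggps1, 0.79) higher, and within experiment 2 alone none did. Of all genes 14.5% were lower and 19.4% higher in experiment 1 alone, and 0.00595% and 0.452% in experiment 2 alone.

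Sc5d (-0.93, edgeR adjusted p = 0.068), Insig2 (-0.97, adjusted p = 0.1) and Ggps1 (0.45, adjusted p = 0.083) came next by adjusted p and did not pass. The median change was -0.61 over members, -0.02 over all genes and -0.88 over the hepatocyte markers. By library totals it was -0.16 over members and 0.42 over all genes, and 1 member, Ggps1, rose while none fell. Of all genes 26.2% rose and 0.244% fell by library totals.

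Genes around the pathway were counted from lists. Among all genes 18.6% fell and 29.5% rose in GREEN versus CTL. The shares were 1.99% and 14.2% in RED versus CTL, and 3.22% and 9.68% in GREEN versus RED. In GREEN versus CTL by library totals 2.85% of all genes fell and 61.5% rose. Scaled to hepatocyte markers 0.476% fell and 83.8% rose. Within experiment 1 alone 18.3% fell and 32% rose, and within experiment 2 alone 4.85% and 15.8%. Of 9 tested genes among other sterol synthesis and SREBP2 targets, 6 fell in GREEN versus CTL, 1 (Cyb5r3, -0.64) in RED versus CTL and none in GREEN versus RED. The falls in GREEN versus CTL included those of Acss2, an acetyl-CoA synthetase (-1.57, SE 0.58), Rdh11, a retinol dehydrogenase (-1.23, SE 0.48), and Cyb5r3, which passes electrons to sterol oxidases (-1.22, SE 0.20). The list had a median of -1.13. By library totals 1 gene of it fell and none rose (median -0.42, against 0.83 over all genes), and scaled to hepatocyte markers 2 rose and none fell (median 0.38, against 1.65 over all genes). Of 15 lipogenic targets of SREBP1, 8 fell in GREEN versus CTL, with Thrsp (-2.67, SE 0.41), the acetyl-CoA carboxylase Acacb (-2.19, SE 0.52), the fatty acid synthase Fasn (-1.41, SE 0.50) and Lpin1 (-1.33, SE 0.34) changing most. By library totals 2 of the 15 fell, and scaled to hepatocyte markers 1 fell and 2 rose. In RED versus CTL only Thrsp fell (-1.81), and in GREEN versus RED only Gpam (-0.64), which starts glycerolipid synthesis. Cyb5r3 in RED versus CTL and Gpam in GREEN versus RED did not pass by library totals, scaled to hepatocyte markers or within experiment 2 alone, and Thrsp in RED versus CTL did not pass within experiment 2 alone. Within experiment 1 alone 5 of the 9 SREBP2 targets and 6 of the 15 lipogenic genes fell in GREEN versus CTL, and within experiment 2 alone 1 and 2.

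Of 11 genes of SREBP cleavage and sterol-regulated degradation, 7 fell and 1 rose in GREEN versus CTL. Of all genes 18.6% fell and 29.5% rose. Among the falls of this list were Pgrmc1 (-1.24), Paqr3 (-0.99) and Erlin1 (-0.75). The ligase Rnf145 rose (1.02 in GREEN versus CTL and 1.49 in RED versus CTL). The site-1 and site-2 proteases that free SREBPs, Mbtps1 (-0.03, 95% interval -0.26 to 0.21) and Mbtps2 (0.19, 95% interval -0.07 to 0.45), did not pass. By library totals 5 of the 11 rose and 1 fell, against 61.5% higher and 2.85% lower of all genes, and scaled to hepatocyte markers 9 rose, against 83.8% of all genes. In GREEN versus RED 2 of the 11 fell, Pgrmc1 (-0.82) among them, against 3.22% of all genes. By library totals 2 rose and none fell in that comparison, against 26.2% higher and 0.244% lower of all genes. Within experiment 2 alone none of the 11 passed there. Within experiment 1 alone 7 of the 11 fell and 1 rose in GREEN versus CTL, and within experiment 2 alone 2 fell and 1 rose. Of all genes 18.3% fell and 32% rose in experiment 1 alone, and 4.85% and 15.8% in experiment 2 alone. The non-sterol branches prenylate proteins or make dolichol and ubiquinone. Of 12 such genes 3 fell in GREEN versus CTL (Dhdds -0.62, Zmpste24 -0.56 and Rabggta -0.56), against 18.6% of all genes. None of the 12 passed in RED versus CTL or GREEN versus RED. By library totals 8 of the 12 rose and none fell, and scaled to hepatocyte markers 12 rose, next to the shares of all genes given for these scalings. In experiment 1 alone 3 of the 12 fell, and in experiment 2 alone none passed, next to the shares given for each experiment.

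Of 16 tested genes of sterol uptake, export, esterification and LXR, the receptor of oxidised sterols, 3 rose in both comparisons with CTL, which share those samples. Of all genes 29.5% rose and 18.6% fell in GREEN versus CTL, and 14.2% rose in RED versus CTL. The 3 genes were Mylip, which degrades the LDL receptor (2.79 in GREEN versus CTL and 3.42 in RED versus CTL), the exporter Abcg1 (2.30 and 2.84), and the esterifying enzyme Soat1 (2.23 and 2.08). In the same comparisons 9 and 10 of 10 macrophage markers rose, with medians of 2.53 and 3.30. All 10 endothelial markers (medians 3.02 and 3.91) and all 10 stellate and matrix markers (medians 5.28 and 4.00) rose in both as well. The part of RNA from such cells in these 3 genes was not tested. In GREEN versus CTL Stard5 (-1.20), Abca1 (-1.04), Npc1 (-1.04) and Nr1h3, the gene of LXR alpha (-0.91), fell, and Nr1h3 also fell in GREEN versus RED (-0.79), though not by library totals or within experiment 2 alone. By library totals 6 of the 16 rose and 1 fell in GREEN versus CTL, against 61.5% higher and 2.85% lower of all genes, and scaled to hepatocyte markers 11 rose and none fell, against 83.8% higher and 0.476% lower. That comparison gave 4 higher and 6 lower within experiment 1 alone, and 3 higher and none lower within experiment 2 alone. Of all genes 32% were higher and 18.3% lower in experiment 1 alone, and 15.8% and 4.85% in experiment 2 alone. In RED versus CTL 3 of the 16 rose under each of these scalings and within each experiment, which share 4 samples. Within experiment 1 alone 1 of the 16 also fell in RED versus CTL, against 1.48% of all genes. Of all genes 17.2% rose there by library totals and 14.5% scaled to hepatocyte markers. In experiment 1 alone 11.8% of all genes rose there, and in experiment 2 alone 6.73%.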

How the data were processed

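Values as deposited were estimated counts for each gene, fractional and not normalized by the authors. The submitters' processing notes name kallisto 0.43.1 and build GRCm38. The annotation release, how transcripts were summed to genes and whether strand was used were not given in the sources used here. Per the labels' protocols, libraries were made from 150 ng of total RNA.

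Counts were rounded, 1 library per sample was used (experiment 2 where a sample had 2), genes were filtered with filterByExpr and libraries were scaled by TMM. GREEN, RED and CTL shared a model with group and experiment, tested with the quasi-likelihood test of edgeR 4.0.16 in R 4.3.3, Benjamini-Hochberg adjusted over 16387 genes, threshold 0.05. The test was checked on simulated counts. SE is that of the log2 fold change, and 95% intervals use 11 residual degrees of freedom. Precision is limited by 5 samples per group. Symbols, positions and exon lengths came from a GENCODE annotation of GRCm38, which held 99.0% of the identifiers, and promoters from RefSeq (GRCm38.p6). Faxdc2 was not matched, and Ch25h had too few counts to be tested.

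Members, lists and tests were chosen with earlier results of these data known, so no count here is independent support. All 26 members are named, those past the threshold in any comparison with every sample's value. From the other lists up to 4 genes per list and direction past the threshold are named, except for items that are not reported here. Alternatives were library totals, DESeq2 1.42.0, limma-voom (limma 3.58.1), no filter, the experiment 1 library of samples with 2, each experiment alone, leaving out samples, and replicate blocks. Scaling to 10 hepatocyte markers and leaving out RED 2 with GREEN 1 were added after seeing the data.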

Additional observations from a re-analysis of the deposited data

Results flagged for a closer look

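Among 84 groups of 5 samples (26 members and the 2 exporters Abcg5 and Abcg8 in GREEN, RED and CTL) 3 had a sample far from the others, where the gap to the nearest sample divided by the range exceeded the 95% critical value of 0.71. Chance gives about 1 in 20 such groups, and 3 of 84 is not above that share. The groups are not independent, as many enzymes share an order of samples. Abcg5 and Abcg8 were singled out after their values were seen. Hmgcs1 in CTL 2 had 1278 CPM, against 617.1 CPM in the next CTL sample (gap over range 0.804). Lss in CTL 2 had 166.6 CPM, against 110.7 CPM in the next (0.711). Both genes lie in the synthesis pathway. With the experiment effect removed from log2 CPM, CTL 2 was the highest CTL sample for 11 of the 20 enzymes. Abcg5 in GREEN 1 had 143.7 CPM, against 37.4 CPM in the next GREEN sample (0.755).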

How the results depend on the processing

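Members past the threshold in GREEN versus CTL (14 as reported) numbered 8 by library totals, 4 in experiment 2 alone, 3 without GREEN 3, GREEN 4 and GREEN 5, 4 (all higher) scaled to hepatocyte markers, and 11 to 16 leaving out each sample. In GREEN versus RED (2 as reported) they numbered 1 by library totals, 4 by DESeq2, 1 with no filter, 8 with the experiment 1 library of the samples with 2, 0 without GREEN 3, GREEN 4 and GREEN 5, 9 from the libraries of experiment 1 and 0 from those of experiment 2 (by edgeR, with 0 at an unadjusted p under 0.05 in both settings that gave 0), 4 without RED 2 and GREEN 1, and 0 to 6 leaving out each sample (0 without RED 1, RED 4, GREEN 3, GREEN 4 or GREEN 5, and 4 to 6 without GREEN 1, RED 2 or GREEN 2). In RED versus CTL (2 as reported) they numbered 1 by library totals, 0 in experiment 2 alone and 0 scaled to hepatocyte markers (each 2 at an unadjusted p under 0.05), and 2 to 3 leaving out each sample. All genes past the threshold in GREEN versus RED (2114 as reported) numbered 4329 by library totals, 3822 by DESeq2, 4141 with the experiment 1 library, 5351 from experiment 1, 77 from experiment 2, 52 without GREEN 3, GREEN 4 and GREEN 5, 866 to 3515 leaving out each sample, and 9362 scaled to hepatocyte markers. In GREEN versus CTL (7890 as reported) they numbered 3481 in experiment 2 alone, 2176 without those 3 samples and 13815 scaled to hepatocyte markers, and in RED versus CTL (2652 as reported) 1207 in experiment 2 alone. The settings that split or drop samples test fewer samples, and other causes were not tested.

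Scaling to hepatocyte markers turned 12 falls of GREEN versus CTL to values above 0: Acat2 0.76, Dhcr7 0.12, Ebp 0.26, Hsd17b7 0.39, Insig1 0.065, Insig2 0.16, Msmo1 0.22, Mvk 0.58, Nsdhl 0.33, Scap 0.11, Stard4 0.37 and Tm7sf2 0.021. In GREEN versus RED it gave Ebp 0.13 and Insig1 0.15. This scaling sets the markers' mean change to 0 by construction, and moves the median of all genes to 1.65 in GREEN versus CTL, 1.02 in GREEN versus RED and 0.54 in RED versus CTL.

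The code numbers did not meet the rule for pairing: the deviations of RED and GREEN samples of the same number correlated across genes at 0.58, 0.40, 0.78, 0.44 and -0.22. With a replicate block by code number, 0 members passed in GREEN versus RED by edgeR (18 members at an unadjusted p under 0.05) and 947 genes in all. Ebp had -0.68 (adjusted p = 0.082) and Insig1 -0.73 (adjusted p = 0.11) in that edgeR fit. A replicate block by title number gave 14 members in GREEN versus CTL (13 of them shared with the reported 14, Acat2 lost and Fdft1 gained), 2 in GREEN versus RED (1 shared, Insig1 lost and Insig2 gained) and 2 in RED versus CTL (both shared).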

Other observations

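Abcg5 and Abcg8, which together form the transporter that sends sterols into bile, did not pass in any comparison and were singled out after their values were seen, for their order among samples. Abcg5 had 144, 37, 6.66, 2.92 and 37.4 CPM in GREEN 1 to 5, 138, 173, 45.8, 15.3 and 9.38 CPM in RED 1 to 5 and 43.8, 59.9, 61.6, 72.1 and 39.5 CPM in CTL 1 to 5. Abcg8 had 105, 42.6, 7.46, 3.25 and 36.7 CPM in GREEN 1 to 5, 126, 122, 55.2, 14.6 and 9.998 CPM in RED 1 to 5 and 73.7, 85.2, 68.5, 85.3 and 52.9 CPM in CTL 1 to 5. GREEN 1 was the highest GREEN sample for both genes, and RED 2 and RED 1 were the highest RED samples, while GREEN 1 and RED 2 were the lowest of their groups in most synthesis enzymes. In the experiment 2 libraries both genes descended in the order of code numbers 2, 3, 4 in GREEN and in RED.

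Scd1, the stearoyl-CoA desaturase of the lipogenic list, also varied widely within groups and was singled out in the same way. It had 1153, 7196, 3334, 2221 and 458 CPM in GREEN 1 to 5, 1567, 1512, 8858, 6950 and 8476 CPM in RED 1 to 5 and 5744, 5890, 6288, 1050 and 2308 CPM in CTL 1 to 5. Its samples followed the order of the sterol enzymes only in part: GREEN 5 was the lowest and GREEN 2 the highest GREEN sample, and RED 2 was the lowest and RED 3 the highest RED sample. Its change in GREEN versus CTL was -0.68 (SE 0.73), which did not pass.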
